A study of Mus musculus with 289 samples.

Results

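A set of 10 transcription factors that build and maintain keratinocyte identity was followed here in single cells of mouse tail skin: Trp63, Klf4, Klf5, Grhl1, Grhl3, Tfap2a, Tfap2c, Ovol1, Zfp750 and Gata3. They were taken by gene symbol, with earlier results of these data known, and all 10 were rows of the deposited table of 15019 genes. The cells were tomato-positive descendants of Lrig1-expressing stem cells, isolated by flow cytometry from the tail epidermis of mice that carried both Lrig1-EGFP-ires-CreERT2 and a Rosa26-fl/STOP/fl-tdTomato reporter, of a mixed CBA and C57BL/6 strain. In both groups hydroxytamoxifen on the tail skin switched on the tomato label in Lrig1-positive cells, which sit at the junctional zone of the hair follicle, and the skin was then treated with PRT4165 or with vehicle. PRT4165 inhibits Ring1A and Ring1B, the ubiquitin ligases of Polycomb repressive complex 1 (PRC1), and the comparison with vehicle asks whether blocking PRC1 alters transcription in unwounded skin. The skin was unwounded, and the label restricts the sample to 1 stem cell lineage, so interfollicular and lower follicle keratinocytes outside that lineage were not sampled. Full-length cDNA of each cell was sequenced on 4 plates, vehicle plates 1 and 2 and PRT4165 plates 1 and 2, and the plate was the replicate. Each plate held 1 treatment, the study pooled several animals, and animals per plate are not labelled, so an effect of the plate cannot be separated from one of the treatment, and p-values measure the spread between plates.

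Epidermal keratinocytes divide in a basal layer that expresses Krt14 and then move upward, leave the cell cycle and replace Krt14 with Krt10. p63, the protein of Trp63, holds the epithelial and basal programme, and the AP-2 factors work with it on many of the same enhancers. KLF4, the grainyhead-like factors, OVOL1 and ZNF750 (Zfp750 in the mouse) act in cells that leave the basal layer, where they switch on barrier genes and restrain basal ones, and Zfp750 is itself a direct target of p63.

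Depth differed between plates. Of 289 cells, 274 passed the filter (70 and 55 on the vehicle plates, 72 and 77 on the PRT4165 plates), with median counts per cell of 141985 on vehicle plate 1 against 429383 to 538754 on the other plates. The keratinocyte label held, though its 7 markers differed in how many cells had a count. Perp was found in 98.6% to 100% of cells per plate, Dsp in 95.8% to 100%, Krt14 in 89.1% to 98.7% and Sfn in 83.6% to 91.4%. Krt5 was found in 65.7% to 87.0%, Cdh1 in 60% to 80.5% and Epcam in 60% to 64.9%. Immune, Merkel, fibroblast and melanocyte markers were found in fewer cells. On any plate the immune gene Ptprc reached 7.27% of cells, and the Merkel genes Krt18 and Krt8 reached 1.82% and 12.7%. The fibroblast genes Col1a1, Dcn and Lum reached 8.33%, 13.9% and 32.7%, and the melanocyte genes Mitf and Dct 20% and 20.8%. Sebaceous markers were widespread: Mgst1 had a count in 56.4% to 85.7% of cells per plate and Scd1 in 29.1% to 67.5%. Among the rarer sebaceous genes, Pparg was found in 5.45% to 22.1% and Far2 in 4.29% to 16.9%. Pecam1, the single endothelial marker measured, had a count in 100% of cells on every plate and therefore marked no lineage here, and several immune, melanocyte and fibroblast markers were not analysed here.

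Promoters of 3 factors that had higher levels in cells with more Krt10 (Klf4, Grhl1 and, on 3 of 4 plates, Grhl3) are shown next to that of Gata3, which did not. RefSeq promoter sequences on GRCm38.p6 matched 5 of the 10 members, with 7 entries (Klf4, Grhl1, Grhl3, Tfap2a and Gata3). Trp63, Klf5, Tfap2c, Ovol1 and Zfp750 are named only. Each sequence below is the 250 bases before the annotated start, 5′ to 3′ on the gene's strand: Klf4 at chr4:55532476-55532725 (minus strand), Grhl1 at chr12:24572037-24572286 (plus strand), Grhl3 at chr4:135573633-135573882 (minus strand) and Gata3 at chr2:9878601-9878850 (minus strand). Capitals mark matches, on either strand, to an AP-2 motif (GCCNNNGGC) or a KLF motif (GGGTGNGG).
Klf4: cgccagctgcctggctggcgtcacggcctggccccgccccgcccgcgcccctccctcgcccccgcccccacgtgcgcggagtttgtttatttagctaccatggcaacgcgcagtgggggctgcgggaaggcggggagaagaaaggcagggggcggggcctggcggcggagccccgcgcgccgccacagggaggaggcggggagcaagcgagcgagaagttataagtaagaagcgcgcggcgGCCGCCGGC
Grhl1: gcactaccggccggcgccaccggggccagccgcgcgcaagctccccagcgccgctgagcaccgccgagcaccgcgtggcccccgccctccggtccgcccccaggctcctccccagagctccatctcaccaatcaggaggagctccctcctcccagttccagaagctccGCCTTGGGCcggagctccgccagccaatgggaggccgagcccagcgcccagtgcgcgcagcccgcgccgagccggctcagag
Grhl3: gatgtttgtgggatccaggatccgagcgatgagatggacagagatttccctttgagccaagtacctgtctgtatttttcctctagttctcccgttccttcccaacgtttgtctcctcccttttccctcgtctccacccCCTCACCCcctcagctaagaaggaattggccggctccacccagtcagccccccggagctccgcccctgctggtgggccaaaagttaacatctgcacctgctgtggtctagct
Gata3: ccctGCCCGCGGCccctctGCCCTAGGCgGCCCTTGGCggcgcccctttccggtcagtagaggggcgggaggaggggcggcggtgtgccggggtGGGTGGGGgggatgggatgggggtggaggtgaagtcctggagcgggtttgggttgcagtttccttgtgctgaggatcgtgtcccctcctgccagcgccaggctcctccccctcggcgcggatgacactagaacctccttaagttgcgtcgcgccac
Klf4 held 1 AP-2 match that begins 9 bases before the start, Grhl1 held 1 that begins 82 bases before it, and Grhl3 held 1 KLF match farther upstream. The Gata3 promoter held 3 AP-2 matches and 1 KLF match. No GRHL motif (AACCNGTT) and no GATA motif (AGATAA) was found in the 7 entries, and no match of any of the 4 motifs was found in the second Grhl1 entry or in either Tfap2a entry. Over all 32851 promoter entries of this length, 13.7% held the AP-2 motif, 14.9% the KLF motif, 1.79% the GRHL motif and 9.99% the GATA motif. A match describes letters and not binding, and its absence says only that those letters are not in this window.

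The 10 loci lie on 8 chromosomes, and in the GENCODE annotation of GRCm38 every one is protein-coding. Trp63 lies at chr16:25683763-25892102 and has 8 annotated transcripts, so its long and short (TA and ΔN) forms were summed in the gene-level counts. Klf4 (chr4:55527143-55532466) and Klf5 (chr14:99298691-99315036) encode Krüppel-like zinc finger factors, the former needed for the skin barrier and the latter linked to proliferating epithelium. Grhl1 (chr12:24572283-24617391) and Grhl3 (chr4:135541888-135573630) encode grainyhead-like factors of desmosome genes and of barrier formation. Tfap2a (chr13:40715302-40738376) and Tfap2c (chr2:172549593-172558622) encode AP-2α and AP-2γ. Ovol1 (chr19:5549136-5560646) encodes a zinc finger repressor of proliferation, Zfp750 (chr11:121510978-121519333) a zinc finger activator of terminal differentiation, and Gata3 (chr2:9857078-9890034) a factor of the inner root sheath and of barrier lipids.

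Levels were compared between genes only per kilobase of exon, as counts scaled to a common total of non-mitochondrial counts (CPM) per kb, averaged over the 4 plates. The length was that of all annotated exons of a gene joined, 8.39 kb for Trp63 (8 transcripts) and 3.23 kb for Zfp750 (1 transcript). The order of genes depends on this choice of length. Klf4 had the highest level with 89.9 CPM per kb (51.2 to 126.9 over plates), followed by Zfp750 with 45.95, Trp63 with 28.6 and Tfap2a with 24.2. Grhl1 (14.2), Klf5 (10.8) and Gata3 (10.2) formed the middle of the order. Ovol1 (6.48), Tfap2c (3.97) and Grhl3 with 3.83 (2.39 to 5.02) had the lowest levels. Neighbours in this order overlapped over the plates throughout, whereas the ranges of Klf4 and Grhl3 were far apart. A high level did not mean many cells: Tfap2a had a count in 85.7% to 92.2% of cells per plate, Trp63 in 72.9% to 88.3%, Klf4 in 61.8% to 72.7% and Zfp750 in 38.2% to 48.1%. Grhl3 had a count in 11.7% to 18.2% of cells and Ovol1 in 7.27% to 27.3%. Single cells carried much of some sums. On vehicle plate 1 a single cell supplied 52.2% of the Klf5 counts and 41.4% of the Zfp750 counts, and on vehicle plate 2 a single cell supplied 49.3% of the Ovol1 counts.

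To order cells from basal to suprabasal, each was given the log2 ratio of Krt10 to Krt14, with 10 CPM added to both, and the cells of each plate were split into terciles. A ratio was set for 263 cells, and the 11 cells with under 100 CPM of both keratins together were left out of the terciles. By construction Krt14 in the summed cells ran from 2462 to 4763 CPM in the lower tercile and from 368 to 1148 CPM in the upper one, and Krt10 from 0.318 to 15.9 CPM and from 8679 to 22091 CPM. In such sums, fewer cells expressing a gene and less RNA per cell cannot be told apart, so the share of cells with a count is given beside the level. Cells of the upper tercile were also deeper on every plate (median 213761 against 88873 counts on vehicle plate 1, and 501575 against 472927 on vehicle plate 2), and shares were therefore taken after every cell was thinned to 50000 counts, which left 246 cells.

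Along the ratio, 5 factors were higher and 1 was lower in the upper tercile with no overlap between the terciles of the 4 plates. Zfp750, Klf4, Grhl1, Ovol1 and Tfap2c were higher, and Trp63 was lower. These are 6 of 10 members, where 12.2% of 10034 genes had terciles that did not overlap. Counting Gata3, which was lower on every plate with overlapping ranges, 7 of 10 members had the same direction on all 4 plates, against 28.5% of the same genes. None of the 10 passed the edgeR quasi-likelihood test between the terciles with plate as a block (adjusted p under 0.05), a test that called 65 of 10047 genes, 0.647%. At an unadjusted p under 0.05 it marked 6 members, where 12.3% of all genes (1240) were marked. With the same sums the DESeq2 test called 6 members (Klf4, Grhl1, Grhl3, Tfap2c, Ovol1 and Zfp750) where it called 13.3% of genes (1339), and limma on the plate means of log2(CPM + 1) called Trp63, Klf4, Grhl1, Grhl3, Ovol1 and Zfp750 where it called 10.8% (1085).

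**Figure D1:**
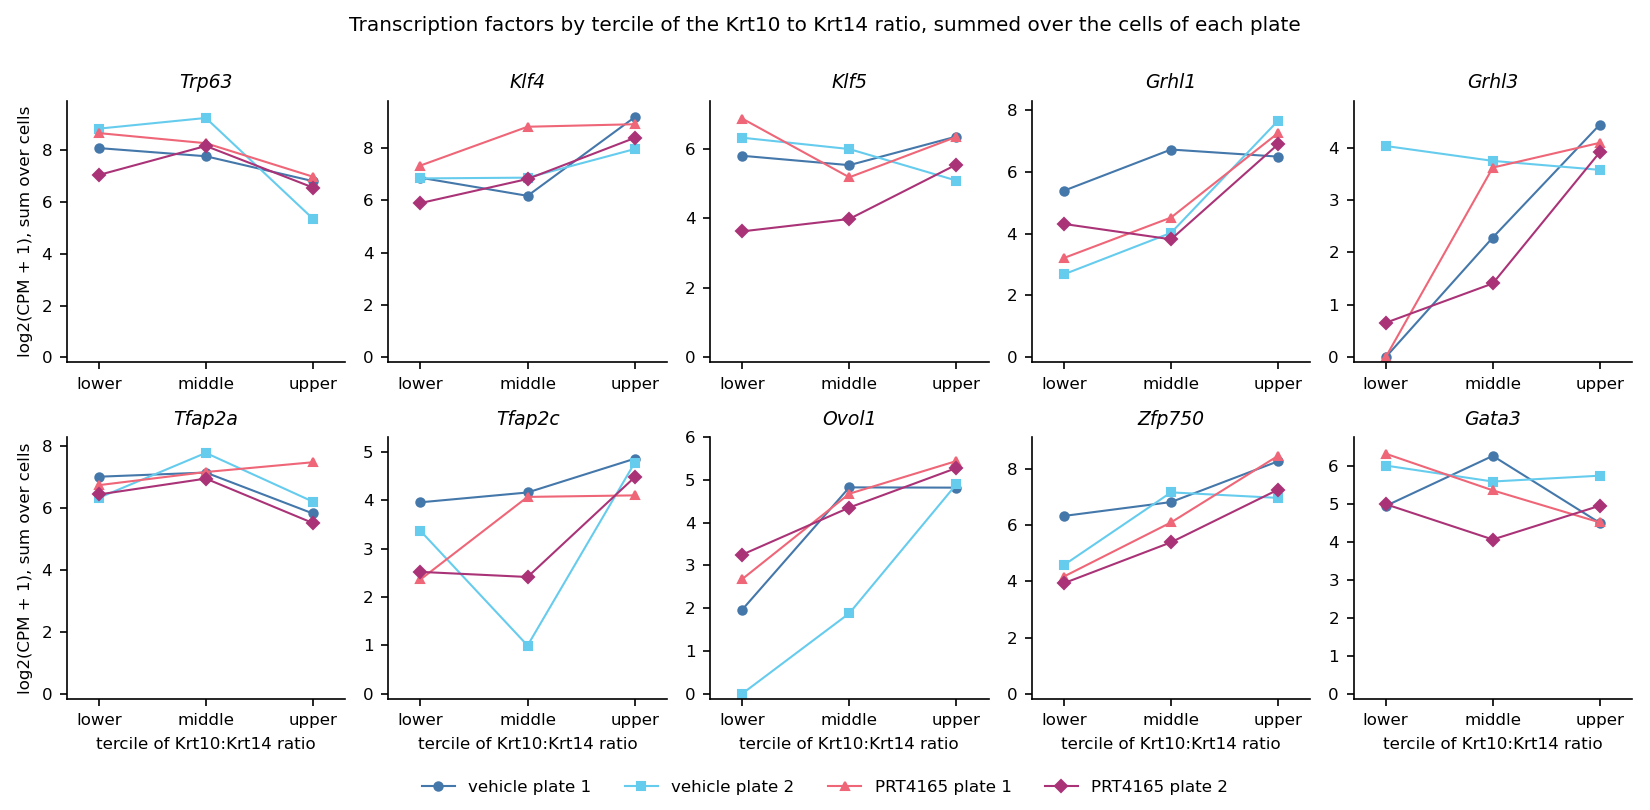
Level of each factor in the lower, middle and upper tercile of the Krt10 to Krt14 ratio, as log2(CPM + 1) of the counts summed over the cells of a plate, 1 line a plate, with its own vertical scale in each panel. Zfp750, Klf4, Grhl1, Ovol1 and Tfap2c ended higher on all 4 plates, Trp63 ended lower on all 4, Gata3 ended lower on all 4 with terciles that overlapped, and Klf5 and Tfap2a had no common direction.

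Zfp750, the activator of terminal differentiation downstream of p63, had the difference in cell share with the smallest spread between plates. On vehicle plates 1 and 2 and PRT4165 plates 1 and 2 its level was 79.4, 23.0, 17.0 and 14.3 CPM in the lower tercile, and 309, 125, 354 and 153.1 CPM in the upper one. All upper values lay above all lower ones, and vehicle plate 1 had the highest lower value. The log2 fold change was 3.54 (standard error 0.62, edgeR adjusted p = 0.0556), and over all alternatives it stayed between 2.96 and 3.93. The share of cells with a count went from 17.7% ± 5.47 to 65.4% ± 5.07 (SD, n = 4 plates), a difference of 47.7 ± 1.22 percentage points. Before thinning the share was 11.8% to 24.0% in the lower and 66.7% to 80.8% in the upper tercile.

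Klf4, the barrier factor, was already present in many cells of the lower tercile. Its level there was 116, 113, 160 and 58.5 CPM in plate order, against 578, 248, 480 and 334 CPM in the upper tercile. The groups did not overlap, and the log2 fold change was 2.39 (standard error 0.46, edgeR adjusted p = 0.0741). Cells with a count went from 51.1% ± 10.2 to 80.1% ± 5.90, a difference of 29.0 ± 9.18 percentage points. In the middle tercile PRT4165 plate 1 stood out with 449 CPM, where the other plates had 71.1 to 116 CPM.

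The grainyhead-like pair had lower levels and rarer counts. Grhl1, a regulator of desmosomal cadherin genes, was at 40.98, 5.43, 8.27 and 18.9 CPM in the lower tercile and at 89.2, 201.5, 152.4 and 118 CPM in the upper one, with no overlap. The log2 fold change was 3.81 (standard error 0.88, edgeR adjusted p = 0.131), and the share of cells went from 15.8% ± 6.91 to 44.1% ± 7.79. Grhl3, a factor of barrier formation and wound closure, had no count in the lower tercile of vehicle plate 1 and PRT4165 plate 1, which allows up to 0.968 and 0.477 CPM. It had 5 counts (0.577 CPM) on PRT4165 plate 2 and 99 counts (15.4 CPM) on vehicle plate 2. Upper values were 20.7, 10.9, 16.1 and 14.1 CPM in plate order, so 3 of 4 plates were higher in the upper tercile and vehicle plate 2 was not. The fitted log2 fold change of 5.74 (standard error 2.27, edgeR adjusted p = 0.365) rests on those near-empty sums and depends on the prior count. Shares of cells were 2.94% ± 5.88 and 26.6% ± 10.6, higher in the upper tercile on all 4 plates.

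Ovol1, the repressor that stops proliferation, and Tfap2c, the AP-2γ gene, showed the same direction at low levels. Ovol1 had 9, 0, 34 and 74 counts in the lower tercile (2.90, 0, 5.41 and 8.53 CPM, with up to 0.465 CPM allowed by the plate at 0), and 27.3, 28.9, 42.5 and 37.8 CPM in the upper one. Its log2 fold change was 4.18 (standard error 1.39, edgeR adjusted p = 0.268). Tfap2c was at 14.5, 9.31, 4.14 and 4.73 CPM in the lower and at 28.0, 26.3, 16.1 and 21.2 CPM in the upper tercile, a log2 fold change of 2.14 (standard error 0.91, edgeR adjusted p = 0.392). Both sets of terciles were apart, Tfap2c narrowly. The share of cells with a count went from 7.13% ± 8.62 to 28.5% ± 11.9 for Ovol1 and from 17.6% ± 0.864 to 39.9% ± 16.2 for Tfap2c.

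Trp63 was the single member with a lower level in the upper tercile without overlap. It was at 272, 458, 407 and 131.5 CPM in the lower and at 111.4, 40.01, 126 and 93.7 CPM in the upper tercile, a log2 fold change of -1.22 (standard error 0.62, edgeR adjusted p = 0.484), which was -0.64 without vehicle plate 2. The highest upper value and the lowest lower value were 126 and 131.5 CPM, so the separation was narrow. In the middle tercile Trp63 was at 218.2 to 611 CPM, within and above the lower range. Cells with a count were 81.4% ± 14.5, 81.2% ± 3.17 and 47.6% ± 8.93 from the lower to the upper tercile, and the difference lay between the middle and the upper tercile. Upper cells with and without a count were close to equal in number, and single upper cells at a log2(CPM + 1) above 8 can be seen in the plot of single cells.

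Klf5, Tfap2a and Gata3 had no common direction or overlapped throughout. Klf5, linked to proliferating epithelium, was at 54.5, 78.6, 116 and 11.3 CPM in the lower and 80.5, 32.9, 79.9 and 45.6 CPM in the upper tercile, higher on 2 plates and lower on 2 (log2 fold change 0.66, standard error 0.80, edgeR adjusted p = 0.813). Its share of cells was higher on all 4 plates nonetheless, 32.02% ± 6.08 against 45.8% ± 4.01. Tfap2a, the most widely detected member, was at 79.4 to 128.2 CPM in the lower and 44.7 to 177.6 CPM in the upper tercile, with a count in 76.6% ± 8.18 and 68.7% ± 14.0 of cells (log2 fold change 0.12, edgeR adjusted p = 0.965). Gata3 was at 29.7 to 78.6 and 21.5 to 52.3 CPM, with a count in 38.02% ± 11.5 and 28.6% ± 4.36 of cells (log2 fold change -0.14, edgeR adjusted p = 0.966). Over 4 plates the exact two-sided permutation test on these shares cannot go below p = 0.125, the value it gave for Trp63, Klf4, Klf5, Grhl1, Grhl3, Tfap2c, Ovol1 and Zfp750.

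**Figure D2:**
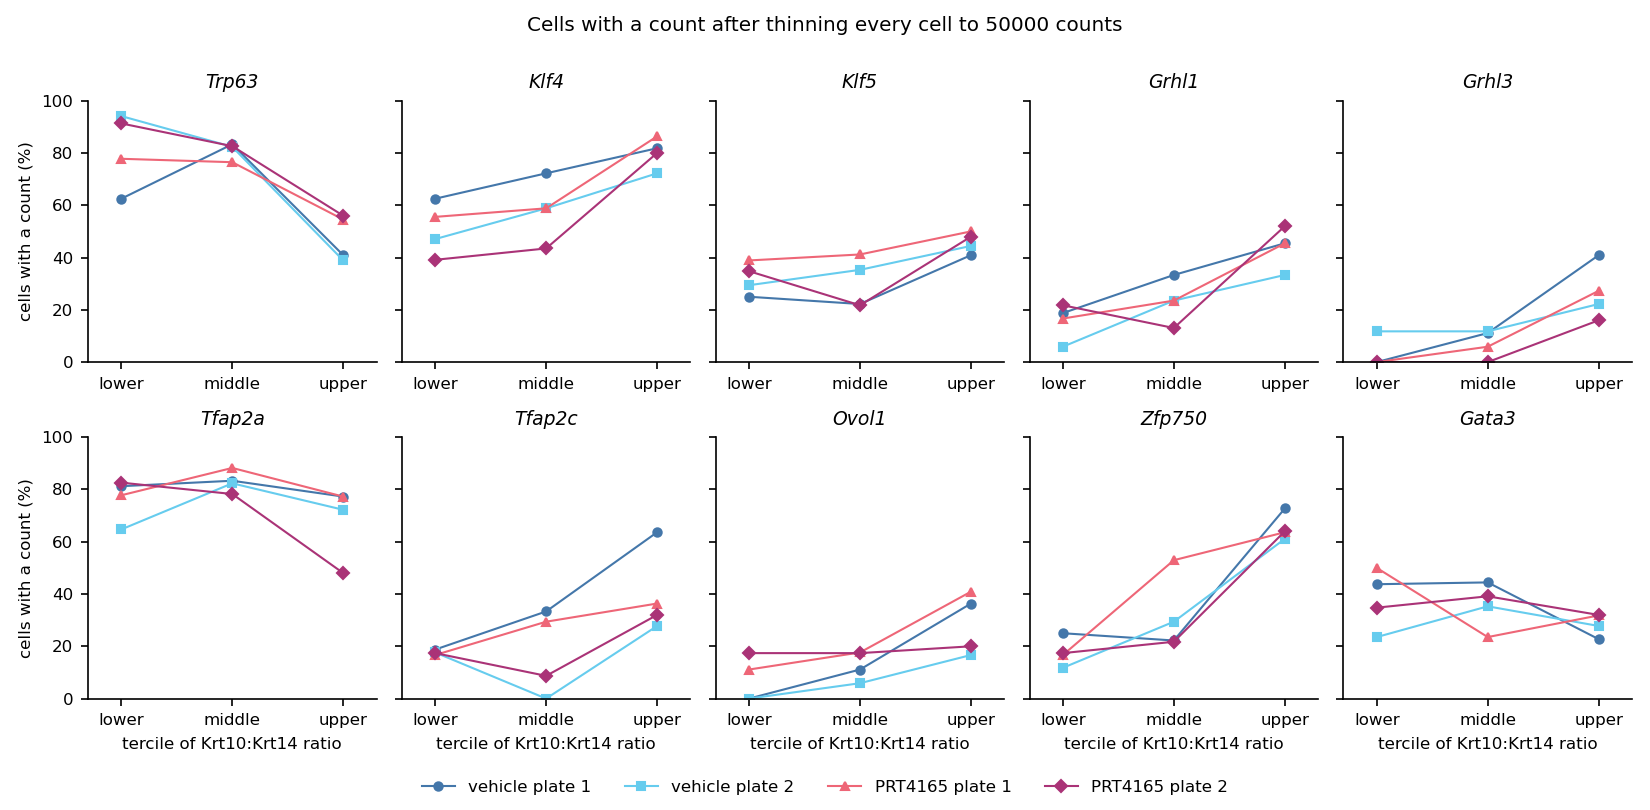
Percentage of cells with a count of each factor in the lower, middle and upper tercile of the Krt10 to Krt14 ratio after every cell was thinned to 50000 non-mitochondrial counts, 1 line a plate. Zfp750 went from 17.7% to 65.4% on average and Trp63 from 81.4% to 47.6%, while Tfap2a stayed in most cells of every tercile.

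**Figure D3:**
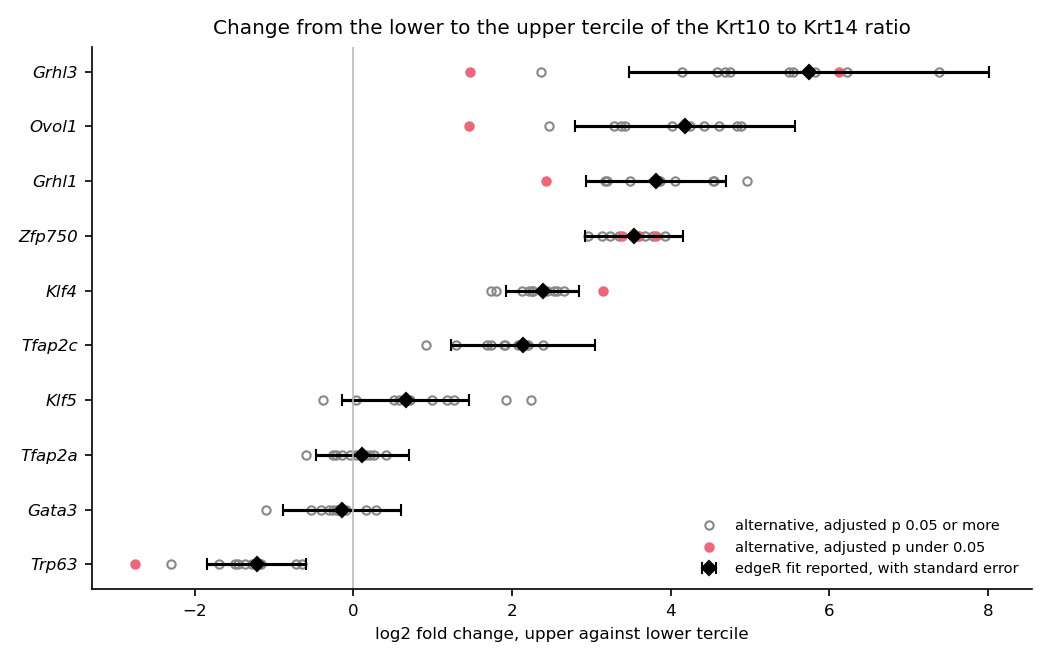
Log2 fold change of each factor between the upper and the lower tercile, as the edgeR fit with its standard error (diamonds) and under each alternative (circles, filled where the adjusted p was under 0.05). Zfp750 lay between 2.96 and 3.93 under every alternative, while Klf5, Tfap2a and Gata3 lay on both sides of 0.

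Other quantities moved along the ratio too. The summed sebaceous markers (8 of 8 measured) were at 1121 to 5715 CPM in the lower and 368 to 702 CPM in the upper tercile, and their part in the member differences was not tested. With the 10% of cells with most of them left out on each plate they were at 235 to 1659 and 350.1 to 407 CPM, and the log2 fold changes of Zfp750, Klf4, Grhl1 and Trp63 were 3.60, 2.27, 4.55 and -1.28. Klf5 went from 0.66 to 2.24 in those cells (standard error 1.34, edgeR adjusted p = 0.577). Thinned cells, which equalise depth, gave 3.38, 1.74, 3.20 and -1.45 for the same genes. Fibroblast markers (5 of 6 measured) were at 2.89 to 235 and 0.717 to 30.2 CPM, melanocyte markers (4 of 6) at 9.36 to 64.04 and 3.60 to 83.3 CPM, and Merkel markers (4 of 5) at 0.775 to 19.3 and 0 to 97.9 CPM in the lower and upper terciles, and the part of these 3 lists was not tested. The immune markers measured (2 of 8) were at 3.23 CPM or less in both terciles, and the endothelial marker Pecam1 (1 of 4) was at 307 to 1140 and 267 to 670 CPM.

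Within single cells the order was the same but loose. Over the 53 to 76 cells of a plate with a ratio, the Spearman correlation of log2(CPM + 1) with the ratio was 0.458 to 0.496 for Zfp750, 0.172 to 0.497 for Klf4, 0.266 to 0.380 for Grhl1 and -0.527 to -0.252 for Trp63. Zfp750 had nearly the same value on all 4 plates, and Klf4 was weakest on vehicle plate 2. Gata3 (-0.0467 to 0.0905) and Tfap2a (-0.178 to 0.138) changed sign between plates. These are descriptions of cells that share a library and a plate, and detection also followed depth. The Spearman correlation of depth with having a count or not was 0.188 to 0.391 for Zfp750 and 0.0386 to 0.189 for Trp63.

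**Figure D4:**
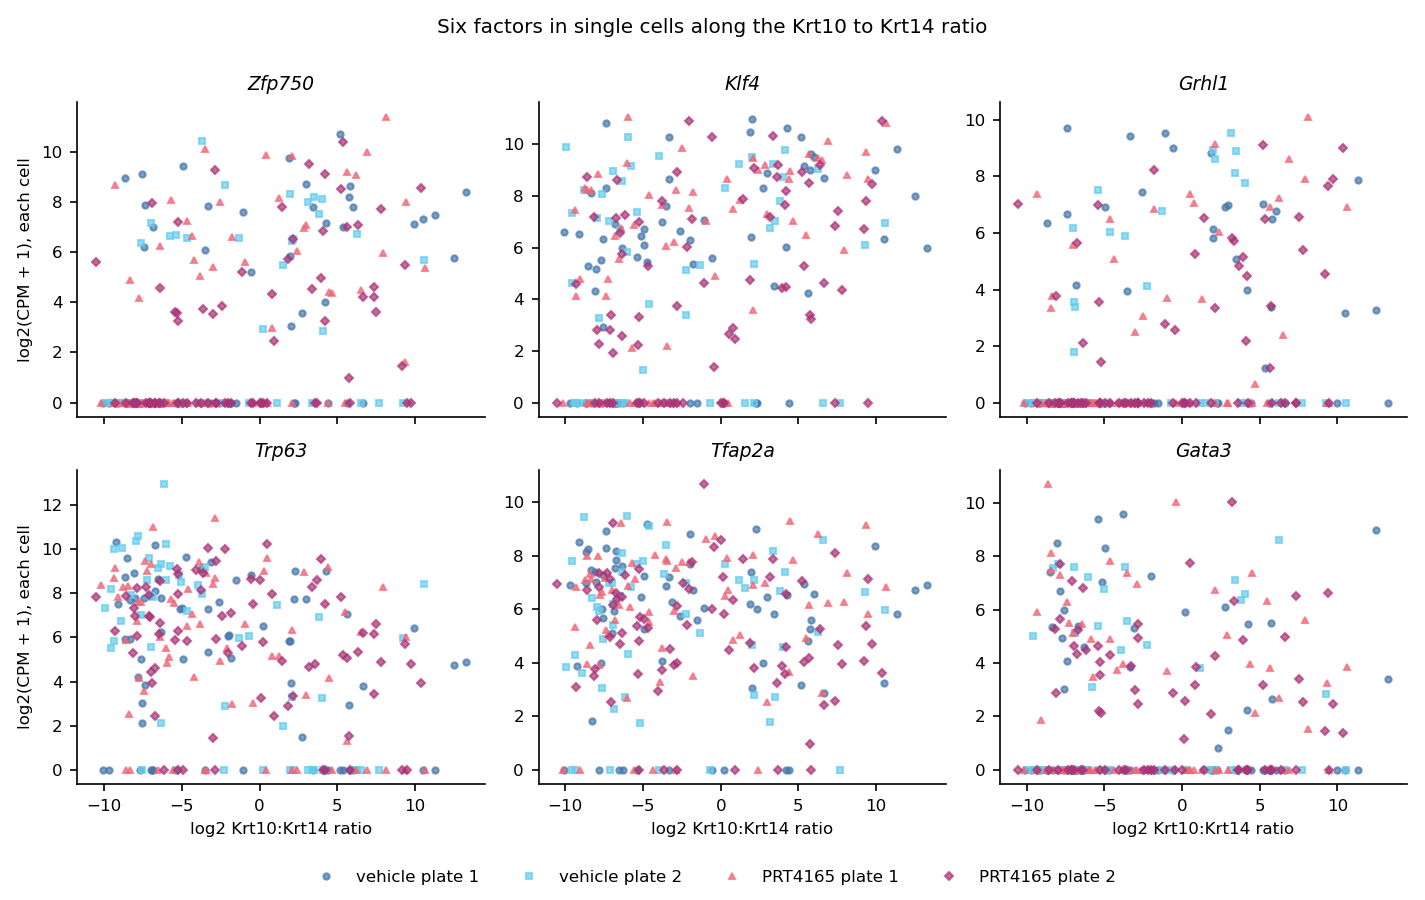
Level of 6 factors, as log2(CPM + 1), against the log2 ratio of Krt10 to Krt14 in each of 263 cells, coloured by plate. Zfp750 and Grhl1 had many cells at 0 on the Krt14 side, Trp63 had more cells at 0 on the Krt10 side, and Tfap2a and Gata3 were spread along the whole ratio.

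Cells rarely carried the whole set. After thinning, the median cell of the lower tercile had a count of 3 of the 10 members on every plate, and the median cell of the upper tercile had 4 to 5, with at most 9 in any cell. Trp63 without Klf4 was found in 40.7% ± 13.5 of lower cells and 9.07% ± 3.38 of upper cells (SD, n = 4 plates). Klf4 without Trp63 was found in 10.3% ± 14.2 and 41.6% ± 7.85. The share with both was 40.8% ± 9.15, 46.8% ± 6.31 and 38.5% ± 7.47 from the lower to the upper tercile, differences within the spread between plates. On vehicle plate 1 the 3 kinds had equal shares of the lower tercile (31.25% each), and on PRT4165 plate 2 cells with both outnumbered cells with Klf4 alone in the upper one (48% against 32%).

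Among the 45 pairs of members, Grhl1 and Zfp750 had the highest within-plate Spearman correlation in thinned cells (mean 0.50 over plates, 0.24 to 0.61, 246 cells). Grhl3 with Zfp750 (0.35), Grhl1 with Ovol1 (0.33) and Klf4 with Grhl3 (0.32) followed, all pairs of differentiation factors. The lowest was Trp63 with Zfp750 (-0.33, from -0.36 to -0.28). Most other pairs were weak, and with sparse counts nothing is read from them.

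For the 8 members with a count in at least 25% of cells, the 3 most similar of 5112 genes were taken. The measure was the mean over plates of the within-plate Spearman correlation across 274 cells, which were not thinned. It again describes cells that share library and depth. Zfp750 was most like Dsg1a (0.64), the desmosomal cadherin of upper layers, then Sdr16c6 (0.61) and Psapl1 (0.60). Grhl1 was most like Zfp750 itself (0.60), then Teddm3 (0.56) and Psapl1 (0.52). Klf4 was most like Dsg1a (0.48), Serpinb3b (0.48) and Tmem45a (0.48), so Dsg1a was on the lists of both Klf4 and Zfp750. Trp63 was most like the ferritin heavy chain gene Fth1 (0.48), Nfib (0.43), a factor of hair follicle stem cells, and the basement membrane collagen gene Col18a1 (0.42). Tfap2c was most like the metallothionein gene Mt4 (0.41), Ly6d (0.38) and Serpinb3b (0.36), and Klf5 most like Anxa1 (0.38), Klf3 (0.38) and Ly6d (0.36). The nearest genes to Gata3 were Sec23b (0.36), Daam1 (0.32) and Map3k20 (0.31). Those to Tfap2a (Cox7b, Lap3 and Ddost, 0.28, 0.28 and 0.27) had the lowest values. Values varied between plates, from 0.16 to 0.56 for Klf5 with Anxa1 and from 0.57 to 0.70 for Zfp750 with Dsg1a.

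Of the gene lists around the members, the differentiation targets had the most calls along the ratio. Of 24 differentiation targets of KLF4, GRHL, OVOL1 and ZNF750, 21 could be tested. Of these 7 passed as higher in the upper tercile and 0 as lower, where 0.647% of all genes passed. At an unadjusted edgeR p under 0.05 there were 18, where 12.3% of all genes were marked. The median log2 fold change was 5.24, beside -0.08 over all genes tested. Krt1, the partner keratin of Krt10, was at 0 to 0.477 CPM in the lower and 815 to 4283 CPM in the upper tercile (edgeR adjusted p = 0.0033). The desmosomal cadherin genes Dsg1a (log2 fold change 4.95, standard error 0.73, edgeR adjusted p = 0.0347) and Dsg1b (3.24, standard error 0.53, edgeR adjusted p = 0.0420) rose, as did Krtdap (3.34, standard error 0.42, edgeR adjusted p = 0.0198), a gene of differentiating keratinocytes. Elovl4, which lengthens the fatty acids of barrier ceramides, was at 0 to 1.61 CPM in the lower and 170 to 353 CPM in the upper tercile. Klk7, a protease of shedding corneocytes, was at 0 to 27.0 against 1460 to 9065 CPM. Flg2, a filaggrin relative, had no count in the lower tercile of any plate and 4.84 to 491 CPM in the upper one, at least 1305-fold higher with the lower group set to 3 counts in all.

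Of 16 basal targets of p63 and AP-2, 14 could be tested, 0 passed as lower and 1 as higher, and the median log2 fold change was -2.20. At an unadjusted edgeR p under 0.05 there were 7 genes, of which only Perp was higher, where 12.3% of all genes were marked. Terciles did not overlap for 9 of the 16, all lower in the upper tercile, where 12.2% of 10034 genes did not overlap in either direction. The gene that passed was Perp, a p63 target that encodes a desmosomal protein of all living layers, at 1891 to 5981 CPM in the lower and 5011 to 10866 CPM in the upper tercile (log2 fold change 1.91, standard error 0.29, edgeR adjusted p = 0.0370). Of 27 other epidermal transcription factors, 24 could be tested and 0 passed (5 under an unadjusted p of 0.05, median 1.26), and of 14 partners of ZNF750 and p63, such as Kdm1a and Ctbp1, all could be tested and 0 passed (1 under an unadjusted p of 0.05, median -0.39).

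Between PRT4165 and vehicle, over all cells of a plate, no member passed. The edgeR test called 0 of 12791 genes (0%), with 4.93% (630) at an unadjusted p under 0.05 and 0 of 10 members among them, and the lowest adjusted p of a member was 0.997. The DESeq2 test called 1.42% of the genes it gave an adjusted p and limma on plate means 17 genes, and neither called a member. Over the members the median log2 fold change was -0.41, beside -0.02 over all genes tested.

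Grhl3 and Ovol1 were the members whose plates separated the treatments. Grhl3 was at 14.0 and 12.3 CPM on the vehicle plates and at 9.76 and 6.67 CPM on the PRT4165 plates, lower on both (log2 fold change -0.70, standard error 0.89). Ovol1 was at 22.4 and 10.7 CPM with vehicle and 26.1 and 31.2 CPM with PRT4165, higher on both (0.76, standard error 0.80), with a log2 fold change of 1.54 without vehicle plate 1 and 0.26 without vehicle plate 2. In both genes the standard error exceeded the difference, and over all genes tested 32% had plates of the treatments that did not overlap in CPM. After thinning, Grhl3 had a count in 17.6% ± 3.91 of vehicle and 8.52% ± 4.19 of PRT4165 cells, and Ovol1 in 12.2% ± 6.75 and 22.0% ± 3.64 (SD, n = 2 plates each). The exact two-sided permutation test gave p = 0.333 for both, the smallest that 2 against 2 plates allow. Before thinning the shares were 17.7% ± 0.735 and 12.8% ± 1.56 for Grhl3 and 16.5% ± 13.04 and 26.8% ± 0.625 for Ovol1, and with cells thinned to 20000 counts the plates of the treatments overlapped for both genes. These 2 of 10 members compare with 37.1% of 12182 genes whose shares did not overlap between treatments.

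The other members varied between plates of 1 treatment as much as between treatments. Trp63, the basal factor, was at 179.2 and 374 CPM with vehicle and 249.9 and 156.05 CPM with PRT4165 (log2 fold change -0.42, standard error 0.53). Klf4 was at 387 and 155.99 CPM against 362 and 191.8 CPM, and Zfp750 at 226 and 106.8 CPM against 178.9 and 82.5 CPM. For these differentiation factors plate 1 was the higher plate in both treatments. Grhl1 was at 78.4 ± 5.12 and 79.4 ± 22.4 CPM, Klf5 at 63.2 ± 11.2 and 49.3 ± 31.9, Tfap2a at 126.7 ± 58.3 and 110 ± 40.6, Tfap2c at 17.2 ± 8.07 and 11.96 ± 0.219, and Gata3 at 48.1 ± 21.2 and 33.2 ± 8.54 with vehicle and PRT4165 (SD, n = 2 plates each). All of these ranges overlapped.

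**Figure D5:**
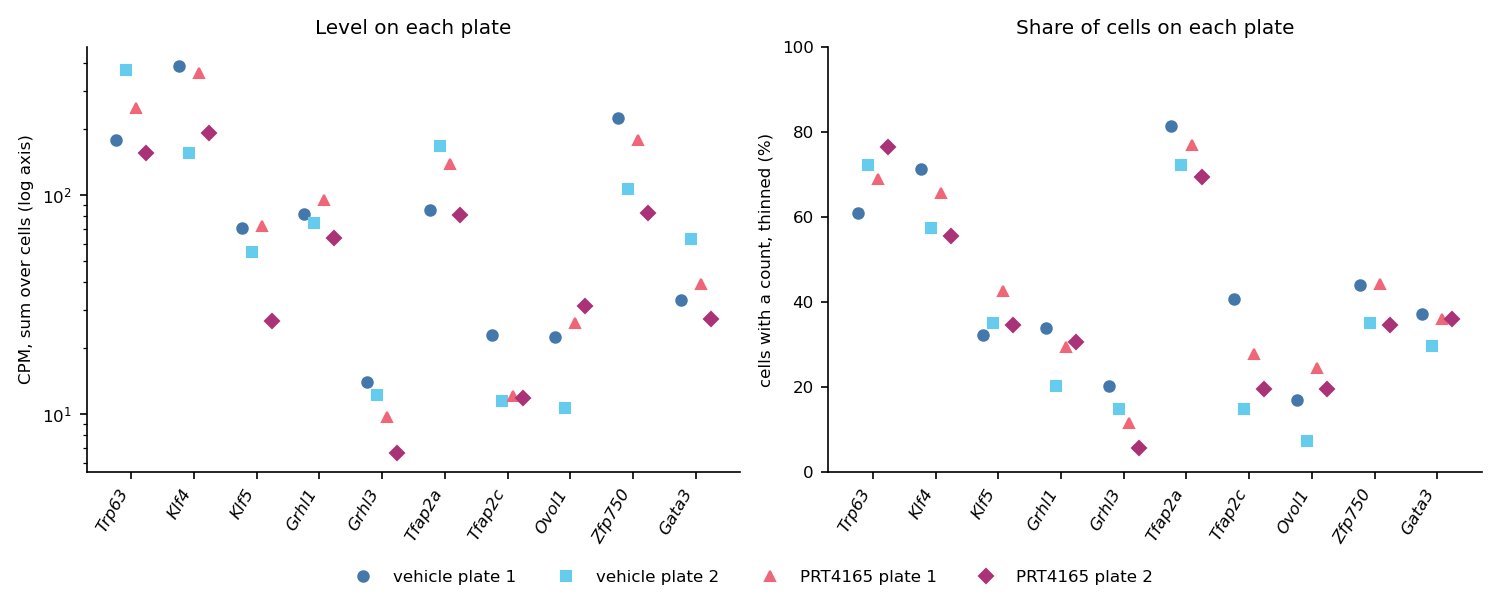
Level of each factor on each plate (left, CPM of the summed cells on a log axis) and percentage of cells with a count after thinning to 50000 counts (right). The PRT4165 plates lay below the vehicle plates for Grhl3 and above them for Ovol1 in both panels, and the plates of the treatments overlapped for the other 8 factors.

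The changes along the ratio were also compared between treatments. Of 10047 genes 0 (0%) had an adjusted p under 0.05 in the edgeR interaction test, 3.04% (305) had an unadjusted p under 0.05, and 0 of 10 members were among these. The DESeq2 test called 113 genes and limma 0, with no member. Zfp750 had the lowest unadjusted p among members, with a change along the ratio that was 1.74 larger on the log2 scale on PRT4165 plates (standard error 1.01, edgeR adjusted p = 1.0), and the values of Grhl3 (3.26, standard error 4.83) and Ovol1 (-3.00, standard error 2.75) were uncertain since some of their lower sums were at 0. The Ovol1 value was -8.16 without vehicle plate 1 (edgeR unadjusted p = 0.0353, adjusted p = 0.844) and -0.65 without vehicle plate 2.

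Among cells of like rank in the keratin ratio of their own plate, no member passed between treatments. Like rank is not like ratio, since each plate had its own cuts. In plate order, the lower tercile ended at log2 ratios of -6.75, -6.96, -6.01 and -5.25. The upper one began at 1.87, -0.69, 0.26 and 1.86. Ranking within plates removes any shift of the ratio itself with treatment, which was not tested. Within the lower tercile 9 members could be tested, all but Grhl3, and edgeR called 0 of 10454 genes (0%), with 4.69% (490) and 0 members at an unadjusted p under 0.05. Within the upper tercile all 10 were tested, and edgeR called 0 of 10219 genes (0%), with 5.28% (540) and again 0 members at an unadjusted p under 0.05. DESeq2 called 1.55% and 2.05% of genes in these terciles and no member. In the lower tercile the CPM of 3 members did not overlap between treatments, where 32.7% of genes did not: Zfp750 and Tfap2c were lower and Ovol1 was higher on both PRT4165 plates. In the upper tercile it was 2 members, Tfap2c again lower and Ovol1 again higher, where 31.5% of genes did not overlap. A single cell supplied 66.3%, 77.0%, 69.2% and 70.2% of the lower Zfp750 counts in plate order. With dispersions of this size (a biological coefficient of variation of 76.9% over all cells and 98.8% and 100.9% within the terciles) large differences too could go undetected, and a p that misses the threshold does not show that the treatments were alike.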

How the data were processed

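Single tomato-positive cells were profiled by a modified Smart-seq2 protocol, with 25 cycles of PCR and no molecular identifiers, so intervals and limits cover counting error only. The authors quantified reads with Salmon 0.13.1 on the mouse transcriptome (Ensembl 101, GRCm38) and deposited the estimated counts of every cell as 1 unscaled table with a row per gene symbol, in which 18.3% of values above 0 were not whole. Groups came from the labels. The treatment labels hold only an AC and a PRT code, and AC was read as vehicle, since the paper dissolved its drugs in acetone. The prefix of each code occurs with 1 treatment only and is not explained, so what it marks cannot be separated from the treatment. Each well received 1 cell, and no doublet caller was run. The study compared single cells with Seurat, which was not followed, since cells of a plate are not replicates.

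Cells with at least 1000 genes and at most 50% of counts from 13 mitochondrial genes were kept. Within each plate, or each tercile of the keratin ratio on it, the counts of all cells were added up, rounded, filtered with filterByExpr, scaled by TMM and compared in edgeR 4.0.16 (quasi-likelihood test, R 4.3.3), with Benjamini-Hochberg adjustment over all genes tested and a threshold of 0.05. Krt10 and Krt14 were left out of tests between terciles, which they set. A standard error is the log2 fold change divided by the square root of F. Shares of cells were compared by exact permutation over plates. DESeq2 1.42.0, limma 3.58.1 (limma-trend) and other settings were alternatives. The scripts were tested on simulated data. The members and gene lists were chosen with earlier results of these data known. Named were all members, up to 5 genes per list and direction past the threshold, and the 3 most similar genes to each member found in at least 25% of cells.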

Additional observations from a re-analysis of the deposited data

Results flagged for a closer look

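Over the 4 plates, 30 groups were examined (each member in each tercile), and 4 held a plate farther from the others than Dixon's 95% critical value for 4 samples. Chance flags about 1 in 20 such groups where values are normally distributed, which was not tested for these unlogged CPM values. All 4 flags were high values, and the plates include both treatments.

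Grhl3 in the lower tercile of vehicle plate 2 was at 15.4 CPM, where the next plate had 0.577 CPM. Zfp750 in the lower tercile of vehicle plate 1 was at 79.4 CPM, where the next plate had 23.0 CPM. Grhl1 in the middle tercile of vehicle plate 1 was at 105 CPM, where the next plate had 22.0 CPM. Klf4 in the middle tercile of PRT4165 plate 1 was at 449 CPM, where the next plate had 116 CPM. A single cell supplied 63.6% of the Grhl3 counts, 66.3% of the Zfp750 counts, 51.5% of the Grhl1 counts and 56.4% of the Klf4 counts in these sums.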

How the results depend on the processing

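The number of members called between the upper and the lower tercile was 0 in the edgeR fit and moved with the test: 6 by DESeq2, 6 by limma on plate means of log2(CPM + 1), 1 (Zfp750) with no filter on low counts and 1 (Zfp750) with cells thinned. It was 0 with DESeq2 size factors, stricter cells, other cuts of the ratio, sebaceous cells left out, or any plate left out (0 to 0). Genes called there were 65 with edgeR, 1339 with DESeq2, 1085 with limma, 126 without the filter, 43 with Krt1 and Krt10 against Krt5 and Krt14, 27 without sebaceous cells, 6 with the ratio split at its median and 7 to 13 without 1 plate. Direction turned under some settings for 3 members. Klf5 was -0.38 with stricter cells, 2.24 without sebaceous cells, 1.92 with Krt1 and Krt10 against Krt5 and Krt14, and 0.036 to 1.18 without 1 plate. Tfap2a was -0.25 by limma, -0.60 with stricter cells, -0.036 with thinned cells, -0.14 with Krt1 and Krt10 against Krt5 and Krt14, and -0.22 to 0.41 without 1 plate. Gata3 was 0.16 with thinned cells and -0.40 to 0.28 without 1 plate. Trp63 was -1.69 to -0.64 without 1 plate.

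Between treatments no setting called a member, and genes called over all cells were 0 with edgeR, 17 with limma and 1.42% with DESeq2. Within the lower and upper tercile edgeR called 8 and 82 genes without the filter and up to 20 and 6 without 1 plate. Trp63 was 0.11 by limma and -0.78 to 0.064 without 1 plate, and Ovol1 was -0.37 with stricter cells and 0.26 to 1.54 without 1 plate. Without 1 plate the interaction of Grhl3 was -4.25 to 6.66 and that of Ovol1 -8.16 to -0.65. Cell names on vehicle plate 2 and PRT4165 plate 2 end in an S number that names on the other plates lack, and the labels do not explain it. Same-numbered plates did not deviate together (correlation over genes 0.04 over all cells, 0.00 and 0.05 within the lower and upper tercile). Numbers were therefore not taken as pairs in the main fit. A replicate block called 0 members and 0 genes over all cells and within either tercile. Members whose shares of cells did not overlap between treatments numbered 2 (37.1% of all genes), but 7 unthinned (38.9% of genes), 0 at 20000 counts (34.6%) and 4 to 9 without 1 plate (66.1% to 69.9%), where 1 plate faces 2. In cells thinned to 100000 counts the shares of Trp63, Grhl3 and Gata3 did not overlap, where 36% of genes did not. In thinned cells with at most 20% mitochondrial counts those of Klf4 and Gata3 did not overlap, where 34.2% of genes did not. Depth and 2 plates a treatment limit every comparison of treatments.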

Other observations

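The 11 cells with too little Krt10 and Krt14 for a ratio still carried members. Tfap2a had a count in 9 of them, Trp63 in 8, Gata3 in 7, Klf5 and Zfp750 in 5 each and Klf4 in 4, at a median of 165737 counts per cell. Among the 263 cells with a ratio, Gata3 had a count in 45.2% and Klf4 in 69.96% of cells. The 15 cells left out for their mitochondrial share had a count of Tfap2a in all 15, of Trp63 in 10 and of Klf4 in 8.

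Among the other epidermal transcription factors, the lowest unadjusted p between the terciles belonged to Prdm1, the gene of BLIMP1, with a log2 fold change of 8.67 (standard error 1.60, edgeR adjusted p = 0.0646), followed by Ehf (5.03, standard error 0.95, edgeR adjusted p = 0.0694). Neither passed the threshold, and they were named after their values were seen.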
